A study of Mus musculus with 22 samples.

Results

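Folliculin, its partners and the transcription factors it holds in check were followed as messenger RNA in mouse liver: Flcn itself, the partner genes Fnip1 and Fnip2, and the MiT-TFE family, which is made up of Tfeb, Tfe3, Mitf and Tfec. They were taken by exact gene symbol from a table of 55573 genes, which gave 7 genes, and all 7 were among the 14062 genes with a mean of at least 10 counts per library. Whole liver of C57BL/6 mice was sequenced as mRNA, 1 library per mouse, in 22 libraries. Liver-Flcn-/- mice carry floxed Flcn alleles and Albumin-Cre, a transgene that expresses the recombinase in hepatocytes, so that exon 7 in the study's numbering is lost there. Cells of the organ that never expressed the recombinase keep the gene. Cre mice carry Albumin-Cre with wild-type Flcn, so the recombinase is present in both genotypes. Mice of each genotype ate chow (6 Cre and 5 liver-Flcn-/- livers) or a diet deficient in methionine and choline, MCD (5 Cre and 6 liver-Flcn-/- livers), which was begun at 6 weeks of age and given for 6 weeks, so that livers came from mice of 3 months. The question put to these 7 genes was whether the partners and the target factors change in RNA level when folliculin is lost.

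FLCN works with FNIP1 or FNIP2 as a GTPase-activating protein for the Rag GTPases RagC and RagD on the lysosome surface. When amino acids are plentiful, the complex lets mTORC1 phosphorylate TFEB and TFE3, which are then kept in the cytosol by 14-3-3 proteins. Without it these factors enter the nucleus and bind E-box motifs in front of lysosomal and autophagy genes, the CLEAR network. That regulation acts on the protein's place in the cell, which RNA levels do not measure. MITF is best known from pigment cells and osteoclasts, and TFEC is expressed mainly in macrophages.

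Between 13751347 and 21144388 reads were counted on genes in each library. Levels are counts-per-million values (CPM), scaled with edgeR's TMM factors, and tests are edgeR's quasi-likelihood test on the deposited counts with Benjamini-Hochberg adjustment over all 14062 genes, called at an adjusted p below 0.05. Each p-value measures the spread between livers of single mice. Hepatocyte identity was plain in all libraries: the 6 hepatocyte markers together took 58130 to 154338 CPM, with albumin (Alb) the most abundant. Their summed level was lower on MCD, with means of 127165 and 105125 CPM in Cre and liver-Flcn-/- livers on chow and 85649 and 68973 CPM on MCD.

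Some libraries stood apart. Cre MCD 3, replicate 3 of the Cre mice on MCD, held 3209 CPM of 10 skeletal muscle genes in sum, against 152 CPM in Cre MCD 4, 71.0 CPM in liver-Flcn-/- MCD 3 and 0.930 CPM in the lowest library. The other Cre MCD livers, replicates 1, 2 and 5, held 20.2, 2.15 and 0.973 CPM, so the sum is a property of single libraries, and no genotype difference is read from these genes. The 5 chow libraries with under 75% uniquely mapped reads in the study's library statistics (Cre chow 1, 5 and 6, liver-Flcn-/- chow 1 and 3) were exactly the chow libraries whose Xist and Y-linked counts read as male. Mapping share and sex therefore cannot be told apart on chow. A fit without these 5 libraries keeps 3 female livers in each chow group and both sexes on MCD. Its comparisons across diets therefore also differ in sex, and no sex term was added there. In a separate fit of all 22 libraries with sex as a covariate, no member's call changed in either comparison of genotypes. By the same reading, females and males numbered 3 and 3 in Cre chow, 3 and 2 in liver-Flcn-/- chow, 3 and 2 in Cre MCD, and 3 and 3 in liver-Flcn-/- MCD.

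On chow, Flcn RNA was lower in liver-Flcn-/- livers, Fnip1 and Fnip2 had higher means, and the 4 transcription factor genes had log2 differences from −0.17 to 0.14. Flcn was the only member to pass the threshold, 0 members higher and 1 lower, where 5.52% of all tested genes were called higher and 3.1% lower. On MCD, Fnip1 and Fnip2 rose and Tfe3 and Mitf fell, so 2 members were called higher and 2 lower against a background of 8.06% higher and 8.53% lower. The median log2 difference over all tested genes was −0.03 on chow and −0.01 on MCD.

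**Figure D1:**
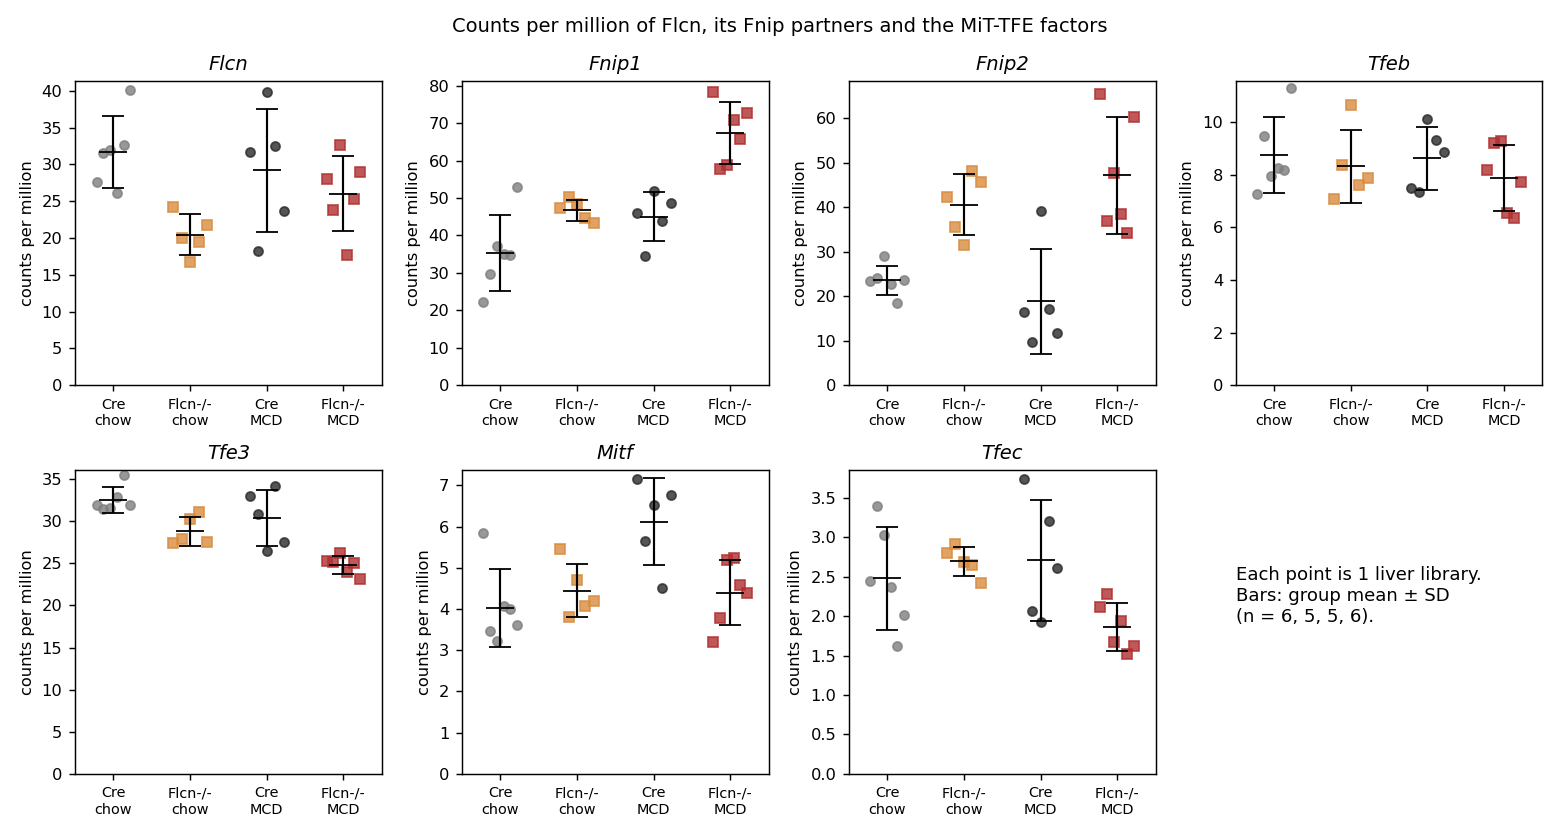
CPM of each of the 7 genes (vertical axes, separate linear scales) in every liver library, by group (horizontal axis), with bars for the group mean ± SD (n = 6, 5, 5 and 6). Flcn in liver-Flcn-/- chow livers lies wholly below Cre chow and Fnip2 wholly above it. Fnip1 on MCD lies wholly above Cre MCD, and Tfe3 wholly below Cre on both diets.

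Flcn encodes folliculin, the subunit of the complex that was targeted (ENSMUSG00000032633, GRCm38 chr11:59791408-59810016, minus strand). Its level in Cre chow livers ran from 26.1 to 40.2 CPM with a median of 31.8. In liver-Flcn-/- chow livers it was 24.2, 20.0, 16.7, 19.4 and 21.8 CPM. Every liver-Flcn-/- library on chow thus lay below every Cre library. The share of all tested genes whose groups separate as fully was not counted, here or for the members below. The log2 difference was −0.63 (SE 0.173, adjusted p = 0.025 by edgeR's quasi-likelihood test), a fall to 0.644 of the Cre level. The two-sided exact permutation test gave p = 0.00216, the smallest that 6 against 5 livers allow. Permutation p-values of single genes are unadjusted here and below. The call was lost without the 5 chow libraries of low mapping share (−0.55, adjusted p = 0.24). It was also lost when Cre chow 6, liver-Flcn-/- chow 3 or liver-Flcn-/- chow 4 was left out, with adjusted p up to 0.068.

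On MCD the Flcn groups overlapped. Cre livers held 31.7, 18.2, 39.9, 32.5 and 23.6 CPM, and liver-Flcn-/- livers ran from 17.6 to 32.6 CPM with a median of 26.6. The log2 difference was −0.16 (SE 0.170, adjusted p = 0.57), and the exact permutation test gave p = 0.556. The difference between the diets' genotype effects was 0.47 (SE 0.242, adjusted p = 0.24 by edgeR's quasi-likelihood test), so a smaller loss of Flcn RNA on MCD was not shown.

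Counts over the whole gene read the deletion only in part. A coding transcript annotated for Flcn (ENSMUST00000102697) is 3437 bases long with 13 exons, and each of its 10 internal coding exons takes 2.68% to 7.88% of that length. Reads from the remaining exons and from cells that never expressed the recombinase are counted under the same symbol. In whole liver, fewer cells of a type and less RNA per cell cannot be told apart.

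**Figure D2:**
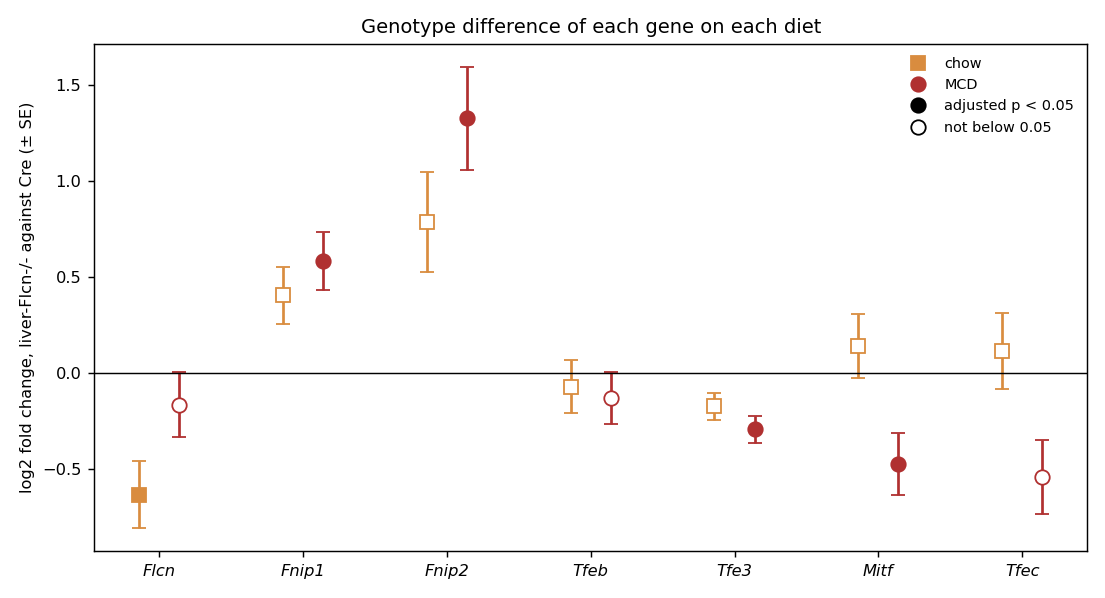
Log2 fold change of liver-Flcn-/- against Cre livers (vertical axis, points with SE bars) for each of the 7 genes (horizontal axis) on chow (squares) and MCD (circles). Filled points passed an adjusted p of 0.05: Flcn alone on chow, and Fnip1, Fnip2, Tfe3 and Mitf on MCD, with Fnip2 farthest from 0 at 1.33.

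Fnip1 and Fnip2 encode the paralogous proteins that each form a complex with folliculin and are needed for its work on the Rag GTPases. Fnip1 lies at GRCm38 chr11:54438199-54518235 on the plus strand (ENSMUSG00000035992) and Fnip2 at chr3:79455974-79567796 on the minus strand (ENSMUSG00000061175). Both had higher means in liver-Flcn-/- livers on both diets, and Fnip2 had the larger difference.

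The Fnip1 promoter carries the motif that MiT-TFE factors bind, and it is shown beside those of the lysosomal genes Rragc, Mcoln1 and Ctsa for that reason. RefSeq promoters of GRCm38.p6 were searched from 250 bases before to 50 bases after each start site for CACGTG, which reads the same on both strands, and for the longer TCACGTG, read on either strand and overlapping it. All 7 genes had an entry, and Fnip1 was the 1 member with either motif, its CACGTG beginning 75 bases before the start site. Each run is on the plus strand, 5′ to 3′, with CACGTG and any T before or A after it that completes the longer motif in capitals.
Fnip1, chr11:54438079-54438134: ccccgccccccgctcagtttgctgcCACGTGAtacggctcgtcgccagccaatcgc
Rragc, chr4:123917296-123917351: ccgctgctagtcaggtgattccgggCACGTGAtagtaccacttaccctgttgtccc
Mcoln1, chr8:3500423-3500504: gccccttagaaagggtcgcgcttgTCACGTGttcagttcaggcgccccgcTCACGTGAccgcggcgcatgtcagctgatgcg
Ctsa, chr2:164833736-164833772: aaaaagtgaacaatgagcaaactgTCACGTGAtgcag

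These letters are common enough to need their background. CACGTG occurred in 7.15% and TCACGTG in 3.77% of all 32851 promoters of that length, and in 11.7% and 6.95% of the 10546 tested genes with an entry. Among the 32 CLEAR network genes with an entry, 15 (46.9%) held CACGTG. That network is described by such motifs in front of its genes, so a high share is built into the list and is not read as a result. A match is a description of the sequence, and no binding was measured in these livers. Ctsa has 2 entries, of which 1 holds neither motif, and in the entry shown a second TCACGTG begins past the end of the printed run, which stops before the start site. The windows of Fnip2, Rragd, Gpnmb, Cd63 and Hexa held neither motif.

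Fnip1 on chow ran from 22.2 to 52.9 CPM in Cre livers with a median of 34.9, and was 47.3, 50.1, 48.3, 44.6 and 43.2 CPM in liver-Flcn-/- livers. The groups overlapped through Cre chow 6 alone, the library at 52.9 CPM. The log2 difference of 0.40 (SE 0.149) had an adjusted p of 0.096 by edgeR's quasi-likelihood test and an unadjusted exact permutation p of 0.0346. Without Cre chow 6 it was 0.55 and passed (adjusted p = 0.0083).

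On MCD the Fnip1 groups separated fully. Cre livers held 46.0, 34.5, 52.0, 43.8 and 48.6 CPM, and the liver-Flcn-/- livers ran from 57.7 to 78.5 CPM with a median of 68.3. Fnip1 rose by 49.8%, a log2 difference of 0.58 (SE 0.149, adjusted p = 0.0095 by edgeR's quasi-likelihood test), and the exact permutation p was 0.00216. Over the 9 alternatives that did not leave out single libraries the adjusted p stayed between 0.0012 and 0.0195. In fits without 1 library it reached 0.027, and the call was kept in each.

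Fnip2 on chow ran from 18.5 to 28.9 CPM in Cre livers with a median of 23.4. In liver-Flcn-/- livers it was 42.3, 35.5, 31.4, 48.0 and 45.6 CPM, each above every Cre library. The log2 difference was 0.79 (SE 0.261), or 1.73-fold, with an adjusted p of 0.064 by edgeR's quasi-likelihood test and an unadjusted exact permutation p of 0.00216. Fnip2 thus did not pass in the fit of all 4 groups although its chow values did not overlap. The difference of 0.79 passed when Cre MCD 3 (SE 0.179, adjusted p = 0.0069) or Cre MCD 2 (adjusted p = 0.039), the highest and the lowest Fnip2 values of their group, was left out. It also passed in a fit of the chow groups alone (0.81, adjusted p = 0.0032) and in DESeq2 (adjusted p = 0.029). Without the 5 chow libraries of low mapping share it was 0.77 and did not pass (adjusted p = 0.33).

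On MCD, Fnip2 was 16.3, 9.61, 39.2, 17.1 and 11.7 CPM in Cre livers and ran from 34.1 to 65.4 CPM in liver-Flcn-/- livers, with a median of 43.1. Apart from the 39.2 CPM of Cre MCD 3, all Cre livers lay below all liver-Flcn-/- livers. Fnip2 rose 2.51-fold, a log2 difference of 1.33 (SE 0.268, adjusted p = 0.0017 by edgeR's quasi-likelihood test), with an exact permutation p of 0.00866. Without Cre MCD 3, the library with the muscle genes, the difference was 1.78.

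The balance between the partners was also read within each library, where no scaling enters. The ratio of Fnip2 to Fnip1 counts had a median of 0.711 in Cre chow (0.445 to 1.05) and 0.895 in liver-Flcn-/- chow livers (0.651 to 1.08). On MCD the medians were 0.355 in Cre (0.240 to 0.755) and 0.719 in liver-Flcn-/- livers (0.519 to 0.834). The ranges overlapped on both diets. The log2 ratio differed by 0.33 on chow (two-sided exact permutation p = 0.201, 0.403 adjusted over the 4 ratio tests) and by 0.88 on MCD (p = 0.0173, adjusted p = 0.0693 by exact permutation). Neither shift passed after adjustment, and without Cre MCD 3 the MCD value was 1.14 with an unadjusted exact permutation p of 0.0048.

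**Figure D3:**
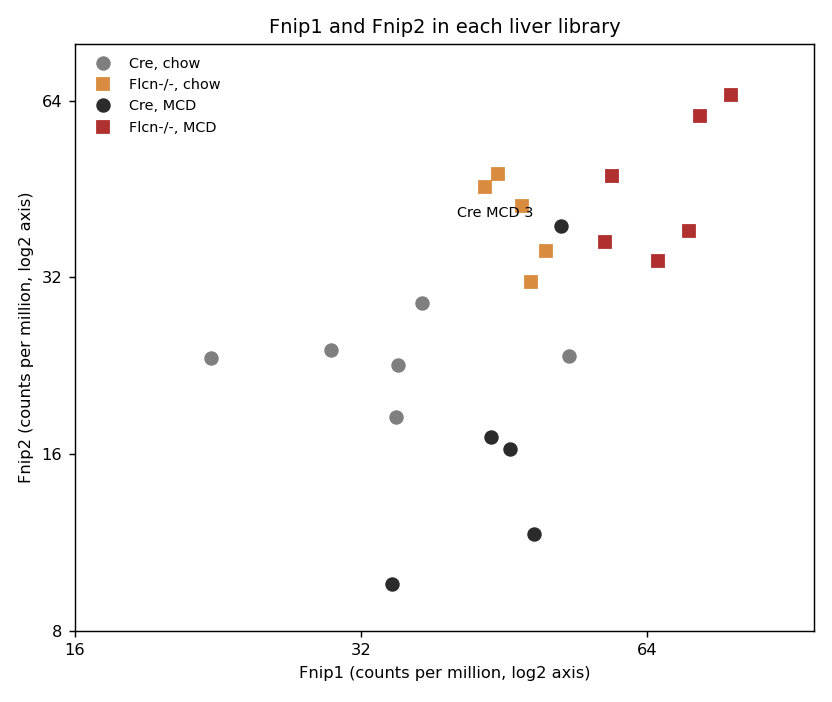
Fnip2 against Fnip1 in each of the 22 liver libraries (both axes CPM on a log2 scale, colour and shape by group). Cre MCD livers sit at the bottom with Fnip2 between 9.61 and 17.1 except Cre MCD 3 at 39.2, and liver-Flcn-/- MCD livers sit at the right with Fnip1 of 57.7 or more.

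Tfe3 encodes the factor that acts beside TFEB on lysosomal genes, and its RNA was the most abundant of the family per exon length (ENSMUSG00000000134, GRCm38 chrX:7762560-7775202, plus strand). On chow it ran from 31.5 to 35.5 CPM in Cre livers with a median of 32.0, and was 27.4, 27.9, 30.3, 31.1 and 27.5 CPM in liver-Flcn-/- livers. The liver-Flcn-/- libraries all lay below the Cre libraries, the nearest at 31.1 against 31.5 CPM. The log2 difference of −0.17 (SE 0.071) did not pass the threshold over all genes (adjusted p = 0.13 by edgeR's quasi-likelihood test). The exact permutation p, unadjusted, was 0.00216.

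On MCD, Tfe3 fell. Cre livers held 33.0, 30.9, 26.5, 34.2 and 27.5 CPM, and liver-Flcn-/- livers ran from 23.1 to 26.3 CPM with a median of 25.1. Again no libraries overlapped, with 26.3 CPM the highest liver-Flcn-/- and 26.5 CPM the lowest Cre value. The log2 difference was −0.29 (SE 0.070, adjusted p = 0.0061 by edgeR's quasi-likelihood test), a fall of 18.4%, and the exact permutation p was 0.00216. Alternatives gave adjusted p from 9.8e-04 to 0.038.

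Tfeb encodes the factor for which the CLEAR network was described, and it lies at GRCm38 chr17:47737030-47792419 on the plus strand (ENSMUSG00000023990). Means were 8.75 ± 1.45 CPM in Cre chow (SD, n = 6), 8.32 ± 1.40 in liver-Flcn-/- chow (n = 5), 8.63 ± 1.19 in Cre MCD (n = 5) and 7.89 ± 1.27 in liver-Flcn-/- MCD livers (n = 6). All 4 groups overlapped, with 6.35 CPM the lowest and 11.3 CPM the highest library. The log2 differences between genotypes were −0.07 (SE 0.139) on chow and −0.13 (SE 0.136) on MCD, with adjusted p of 0.80 and 0.58 by edgeR's quasi-likelihood test. The log2 ratio of Tfeb to Tfe3 counts differed by 0.10 on chow and 0.15 on MCD, with exact permutation p of 0.470 and 0.348 before adjustment over the 4 ratio tests.

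Mitf and Tfec were scarce, with 45 to 174 and 24 to 91 reads per library, so their values carry more counting error than those of the other members. Mitf (ENSMUSG00000035158, GRCm38 chr6:97807052-98021349, plus strand) ran from 3.21 to 5.85 CPM in Cre chow livers with a median of 3.80, and was 5.45, 3.80, 4.70, 4.08 and 4.20 CPM in liver-Flcn-/- chow livers. Its chow difference of 0.14 (SE 0.169) had an adjusted p of 0.66 by edgeR's quasi-likelihood test. On MCD it was 7.16, 5.64, 6.52, 4.51 and 6.76 CPM in Cre livers and 3.20 to 5.24 CPM with a median of 4.49 in liver-Flcn-/- livers. Only Cre MCD 4, at 4.51 CPM, lay within the liver-Flcn-/- range. The log2 difference of −0.48 (SE 0.163) had an adjusted p of 0.048 by edgeR's quasi-likelihood test, and the exact permutation p was 0.0260. That call was marginal: it was lost in 16 of 22 fits that left out a single library and in 3 of 9 other alternatives (adjusted p of 0.070 to 0.11), a fit of the MCD groups alone and a fit without a filter on low counts among them.

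Tfec (ENSMUSG00000029553, GRCm38 chr6:16833373-16898441, minus strand) ran from 1.62 to 3.40 CPM in Cre chow livers with a median of 2.41, and was 2.80, 2.91, 2.69, 2.65 and 2.43 CPM in liver-Flcn-/- chow livers. On MCD it was 3.75, 2.07, 1.92, 3.20 and 2.61 CPM in Cre livers and 1.51 to 2.28 CPM with a median of 1.81 in liver-Flcn-/- livers. The MCD groups overlapped through Cre MCD 2 and 3. The log2 difference there was −0.54 (SE 0.193, adjusted p = 0.059 by edgeR's quasi-likelihood test, exact permutation p = 0.0303), and it passed in 4 of 22 fits without 1 library. Those fits ran from −0.64 without Cre MCD 3 (adjusted p = 0.027) to −0.39 without Cre MCD 1 (adjusted p = 0.21).

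Macrophage markers were measured beside Tfec because that gene is known from macrophages. The 11 macrophage or Kupffer cell markers summed to 649 ± 114 CPM in Cre chow (SD, n = 6), 739 ± 110 in liver-Flcn-/- chow (n = 5), 696 ± 183 in Cre MCD (n = 5) and 572 ± 165 in liver-Flcn-/- MCD livers (n = 6), with Cd5l the most abundant and none at 0 in every library. Between genotypes on MCD, Timd4 rose (log2 difference 0.94) and Cd68 fell (−0.73) among the 11, and 4 of 8 stellate cell markers fell and 0 rose (median −0.50). The 7 markers of monocyte-derived macrophages summed to 65.6, 138, 192 and 146 CPM in the same order, and 3 of them fell between genotypes on MCD and 3 rose on chow. The part of these cells in the Tfec and Mitf values was not tested.

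The diet comparison within each genotype asked which of the 7 genes respond to MCD with and without hepatic Flcn. In Cre livers, 2 members rose on MCD and 0 fell, where 29.3% of tested genes rose and 28.2% fell. In liver-Flcn-/- livers, 1 member rose and 2 fell, where 22.5% rose and 22.5% fell. Shares of that size leave little to read in the members' counts.

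Fnip1 rose on MCD in liver-Flcn-/- livers by 0.53 on the log2 scale (SE 0.149, adjusted p = 0.0062 by edgeR's quasi-likelihood test), and all 6 MCD libraries lay above all 5 chow libraries. In Cre livers the rise of 0.35 (adjusted p = 0.049) was at the threshold, was lost in 20 of 22 fits without 1 library, and had an exact permutation p of 0.0931. Mitf rose in Cre livers by 0.60 (SE 0.165, adjusted p = 0.0036) and differed by −0.01 in liver-Flcn-/- livers. In the latter Tfe3 fell by 0.22 (SE 0.070, adjusted p = 0.015) and Tfec fell by 0.53 (SE 0.196, adjusted p = 0.032, by edgeR's quasi-likelihood test), both with every MCD library below every chow library. Both calls were lost without a filter on low counts (adjusted p = 0.084 and 0.088 by edgeR's quasi-likelihood test) and without the 5 chow libraries of low mapping share (0.054 and 0.069). The second of these fits set female chow livers against MCD livers of both sexes. Over the 9 alternatives that did not leave out single libraries, log2 differences were −0.22 to −0.20 for Tfe3 and −0.54 to −0.50 for Tfec. The Tfec call was also lost in 5 of 22 fits without 1 library (adjusted p up to 0.067). Beside the fall of Tfec, 4 of the 11 macrophage markers fell in the same comparison, by 0.54 for Csf1r, 0.56 for Adgre1, 0.74 for Clec4f and 0.89 for Timd4 on the log2 scale. Of the 7 monocyte-derived macrophage markers 3 rose and 0 fell there (median 0.65). Beside the rise of Mitf in Cre livers, 7 of 7 of these markers (median 1.98) and 5 of 8 stellate cell markers rose, against 1 of 8 stellate cell markers in liver-Flcn-/- livers. The part of these cells in the Tfec and Mitf values was not tested.

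Fnip2 did not pass in either diet comparison, with log2 differences of −0.32 in Cre (SE 0.264, adjusted p = 0.30) and 0.22 in liver-Flcn-/- livers (adjusted p = 0.53 by edgeR's quasi-likelihood test). Without Cre MCD 3 the value in Cre livers was −0.78 and passed as a fall (adjusted p = 0.0020). Flcn differed by −0.12 in Cre (adjusted p = 0.57) and 0.35 in liver-Flcn-/- livers (adjusted p = 0.10). Tfeb differed by −0.02 and −0.08, and Tfe3 in Cre livers by −0.10, none of them past the threshold.

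Whether genotype changed the diet response was tested as an interaction. No member passed, 0 of 7, where 3.29% of tested genes were called positive and 5.54% negative. At an unadjusted p below 0.05 by edgeR's quasi-likelihood test there were 2 members, Mitf and Tfec, a share near the 24.5% of all tested genes at that limit. Their log2 interactions were −0.62 (SE 0.234, adjusted p = 0.10) and −0.65 (SE 0.276, adjusted p = 0.14). The 8 alternatives that did not leave out single libraries, DESeq2 and limma-voom among them, also gave 0. Without Cre MCD 3, Fnip2 passed (1.00, adjusted p = 0.021), and without Cre chow 1, Mitf passed (adjusted p = 0.037). The differences between diets in the members' genotype effects were otherwise not detectable with these livers.

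Averaged over both diets, the genotype difference was called higher for 2 members and lower for 2, where 8.36% of tested genes were higher and 6.15% lower. Fnip2 was 2.08-fold higher (log2 1.06, SE 0.187, adjusted p = 3.8e-04 by edgeR's quasi-likelihood test). Fnip1 was 1.41-fold higher (log2 0.49, SE 0.105, adjusted p = 0.0024). Tfe3 fell by 0.23 on the log2 scale (SE 0.050, adjusted p = 0.0024) and Flcn by 0.40 (SE 0.121, adjusted p = 0.029). The averaged Flcn call was lost in 5 of 22 fits without 1 library (Cre MCD 1, 3 or 4, liver-Flcn-/- chow 3 or 4, adjusted p up to 0.057), without a filter on low counts (0.0505) and without the 5 chow libraries of low mapping share (0.14). Mitf, Tfeb and Tfec had log2 differences of −0.17, −0.10 and −0.21, with adjusted p of 0.38, 0.55 and 0.34.

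Levels of different genes were compared per length, as CPM per kb of annotated exon. Length was the union of all annotated exons, for Flcn 4322 bases against 3437 in the transcript named above. Other lengths, which could change the order and the family shares below, were not tried. In Cre chow livers the order was Flcn 7.33, Fnip1 4.96, Tfe3 3.52, Fnip2 2.81, Tfeb 1.54, Mitf 0.651 and Tfec 0.443. Only Fnip2 and Tfeb, and Tfeb and Mitf, were neighbours whose libraries did not overlap. In liver-Flcn-/- chow livers Fnip1 led at 6.56, followed by Fnip2 at 4.85 and Flcn at 4.72, and only the last 2 of these overlapped among all neighbours in the order. On MCD, Cre livers held Flcn at 6.75 and Fnip1 at 6.32 CPM per kb, which overlapped, while liver-Flcn-/- livers held Fnip1 at 9.47, Flcn at 6.03 and Fnip2 at 5.64. Fnip2 thus stood below Tfe3 in both Cre groups and above it in both liver-Flcn-/- groups. In Cre livers the libraries of Fnip2 and Tfe3 overlapped on both diets.

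**Figure D4:**
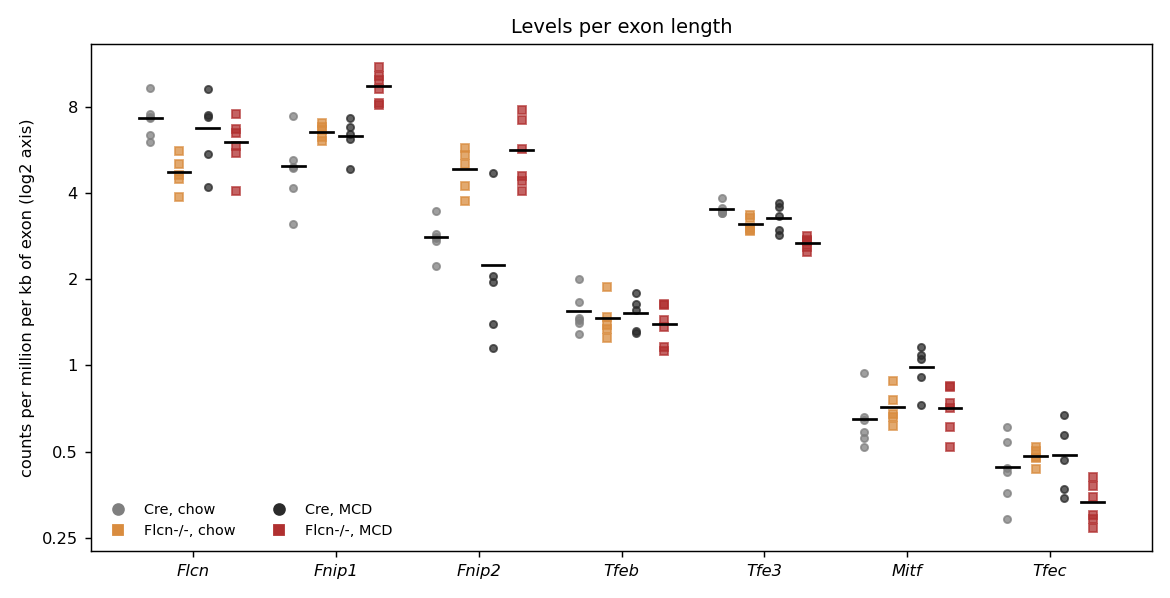
CPM per kb of exon (vertical axis, log2 scale) for the 7 genes (horizontal axis), points for single libraries and short lines for group means, colour and shape by group. The mean of Flcn is highest in both Cre groups (7.33 and 6.75) and that of Fnip1 in both liver-Flcn-/- groups (6.56 and 9.47), and the mean of Tfec is lowest in all 4 groups.

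Within the MiT-TFE family, Tfe3 took over 50% of the summed per-length level in each group. Its share was 57.2% ± 2.84 in Cre chow, 53.9% ± 2.36 in liver-Flcn-/- chow, 52.2% ± 4.04 in Cre MCD and 52.5% ± 2.09 in liver-Flcn-/- MCD livers (SD, n = 6, 5, 5 and 6). Tfeb followed with means of 24.3% to 27.1%. Mitf took 10.6% in Cre chow and 15.8% in Cre MCD livers, and Tfec 6.50% to 8.35%. Differences in these shares between groups were not tested.

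The genes most like each member across the 22 libraries were read as a description, by Pearson's r of log2 CPM over 12668 genes with a mean of at least 1 CPM. The libraries share the group structure, so any genes that differ between the same groups correlate. Fnip1 was most like Atp6ap2 (r = 0.897) and Atp6v1a (r = 0.895), which encode an accessory subunit and the catalytic A subunit of the lysosomal proton pump, and Nceh1 (r = 0.891). Fnip2 was most like Appl2 (r = 0.904), Selenop (r = 0.903) and Inpp4a (r = 0.903). Tfe3 was most like Lsr (r = 0.901), a lipoprotein receptor gene, with Fam25c (r = 0.848) and Gle1 (r = 0.843).

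Flcn was most like Abcg8 (r = 0.780), a subunit of the sterol exporter of the bile canaliculus, with Rara (r = 0.749) and Dmgdh (r = 0.742). Tfec was most like Pilrb2 (r = 0.833), Csf1r (r = 0.822), the receptor for the macrophage growth factor, and Pilra (r = 0.814). Mitf and Tfeb had the weakest nearest genes, Fam83f (r = 0.754) and Pex26 (r = 0.662). After group means were removed, r was 0.873 for Fnip1 with Nceh1 and 0.721 for Flcn with Abcg8, but 0.610 and 0.601 for Fnip1 with Atp6ap2 and Atp6v1a, and 0.600, 0.343 and 0.314 for Tfe3 with Lsr, Fam25c and Gle1. The choice of nearest genes depended on the measure: ranked by Spearman's rho or after removing group means, 0 to 2 of each member's 3 genes stayed among its nearest 3.

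The genes around folliculin were counted by role, to be read beside the 5.52% higher and 3.1% lower of all tested genes on chow and the 8.06% and 8.53% on MCD. A count such as 1 gene of 16 lies near those shares. Among 27 genes of the Rag GTPases, Ragulator and mTORC1, of which 26 were tested, 3 were higher and 2 lower in liver-Flcn-/- livers on chow (median log2 difference −0.06) and 5 higher and 0 lower on MCD (median 0.09). Rragd, which encodes the Rag GTPase RagD, rose from 2.18 ± 0.522 CPM (SD, n = 6) to 33.2 ± 10.3 (n = 5) on chow and from 6.77 ± 2.23 (n = 5) to 61.6 ± 11.5 (n = 6) on MCD. Those are log2 differences of 3.91 (SE 0.252) and 3.18 (SE 0.242), with adjusted p of 7.8e-10 and 2.5e-08 by edgeR's quasi-likelihood test. Rragc, which encodes the related RagC, rose by 0.38 and 0.60 on the log2 scale. Rragb, at a mean of 0.081 to 0.908 CPM per group, was below the filter and untested.

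Smaller differences in the same list passed on chow or on MCD, and of the 26 tested genes Deptor alone passed the test of a difference between diets. On chow, Lamtor3 of the Ragulator scaffold rose by 0.38, Lamtor2 of the same scaffold fell by 0.32, and Mios of the GATOR2 complex, which relays amino acid levels, fell by 0.28. The Lamtor2 call was lost without liver-Flcn-/- chow 3 or 4 (adjusted p up to 0.064 by edgeR's quasi-likelihood test). The Mios call (adjusted p = 0.040) was lost in 5 of 9 alternatives (up to 0.34) and in 11 of 22 fits without 1 library, and without the 5 chow libraries of low mapping share those of Lamtor2, Lamtor3, Rragc and Prkaa1 on chow were lost as well, with log2 differences of −0.35, 0.38, 0.36 and 0.46. On MCD, Tsc1, a brake on mTORC1, rose by 0.75 (adjusted p = 1.9e-04), the mTOR inhibitor Deptor by 0.43 and Lamtor1 by 0.35. The last 2 calls were each lost in 2 of 22 fits without 1 library, Deptor without Cre MCD 4 or liver-Flcn-/- MCD 6 (adjusted p up to 0.066) and Lamtor1 without Cre MCD 1 or 3 (up to 0.053). Of 7 tested genes for AMPK, the energy sensor that binds FNIP1, and its kinase LKB1, Prkaa1 rose on both diets (0.47 and 0.41) and Prkaa2 on MCD (0.56), and both encode catalytic subunits. The MCD call of Prkaa1 was lost without Cre MCD 4 (adjusted p = 0.055). In the C9orf72-SMCR8 complex, a structural relative of FLCN and FNIP, C9orf72 fell on MCD by 0.64 (adjusted p = 6.2e-04) and the other 2 genes did not pass on either diet.

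Among 16 regulators of where TFEB and TFE3 reside in the cell, 1 was higher and 0 lower on chow (median −0.02), and 2 were higher and 1 lower on MCD (median 0.04). Mcoln1, the lysosomal calcium channel upstream of calcineurin, rose from 30.5 to 47.1 CPM on chow and from 26.2 to 45.4 CPM on MCD, log2 differences of 0.63 and 0.79. Of the 14-3-3 genes, Ywhaq rose by 0.37 and Ywhah fell by 0.36 on MCD. The other tested members of this list did not pass in either comparison of genotypes.

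The CLEAR network holds the genes that MiT-TFE factors bind and switch on, most of them lysosomal. Of 43 tested CLEAR network genes, 15 were higher and 0 lower on chow (median 0.29), and 28 were higher and 0 lower on MCD (median 0.43). Ctsa, a lysosomal protease that protects glycosidases, rose from 151 to 335 CPM on chow and from 189 to 482 CPM on MCD. Hexa, a lysosomal glycosidase gene, rose by 1.23 on the log2 scale on chow, and Tpp1, a lysosomal peptidase, by 0.69. Cd63, a late endosomal tetraspanin, rose by 3.67 on chow, from 4.23 to 54.4 CPM, and on MCD from 86.2 to 244 CPM (adjusted p = 0.0016). Gpnmb, a transmembrane glycoprotein induced with lysosomal stress, had means of 129 ± 84.1 and 137 ± 73.0 CPM in Cre and liver-Flcn-/- livers on MCD. On chow it held 0.0791 to 0.677 CPM in Cre and 0.467, 1.60, 2.55, 4.08 and 3.72 CPM in liver-Flcn-/- livers, and it met the count filter through the MCD libraries. It is 1 of the 15 genes called on chow, but its chow call was lost in limma-voom (adjusted p = 0.22) and without the 5 chow libraries of low mapping share (0.064). On MCD, Hexa rose by 1.23, Ppargc1a, a coactivator of mitochondrial genes, by 1.10, Tpp1 by 0.96 and the sialidase gene Neu1 by 0.82. In the same chow comparison 3 of the 7 monocyte-derived macrophage markers rose (median 0.94, sums of 65.6 and 138 CPM), and macrophages also express genes of this list such as Gpnmb and Cd63. The part of those cells in the counts was not tested. The list and its named genes were chosen with earlier results of these livers known, so its counts are no independent evidence of a direction.

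**Figure D5:**
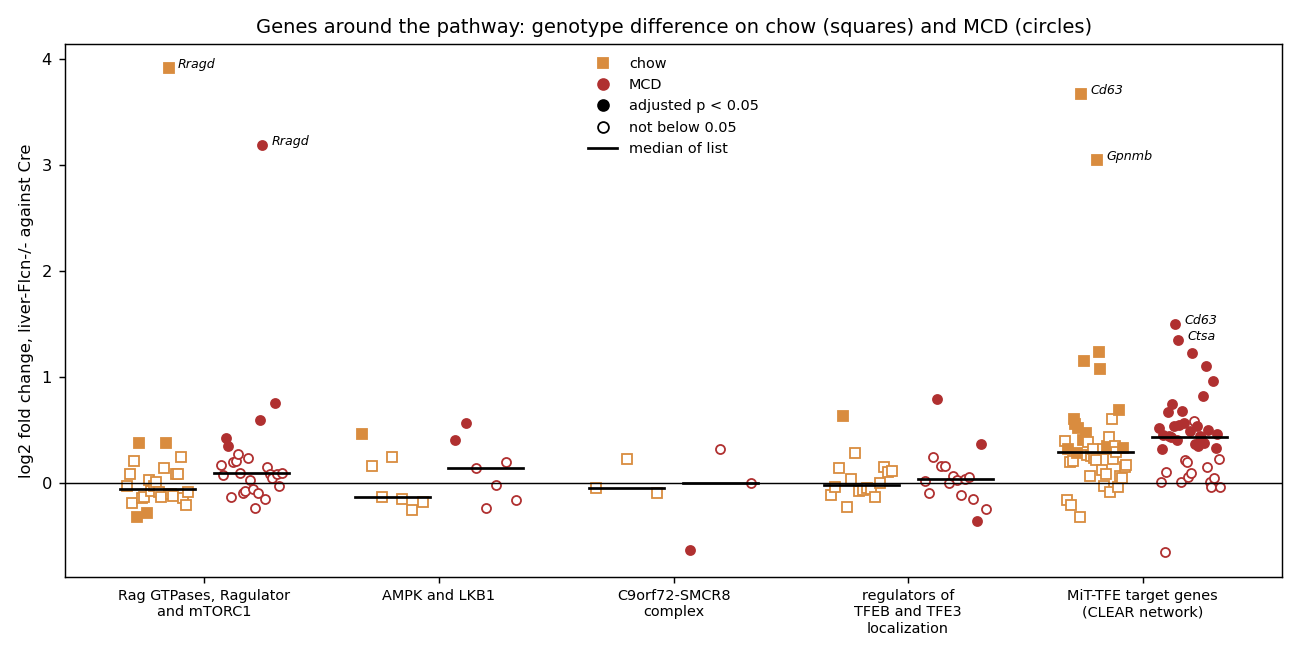
Log2 fold change of liver-Flcn-/- against Cre livers (vertical axis) for each tested gene of 5 lists (horizontal axis) on chow (squares) and MCD (circles), filled where the adjusted p was below 0.05, with a line at the list median. The CLEAR network medians lie at 0.29 and 0.43, and Rragd stands at 3.91 and 3.18 among Rag, Ragulator and mTORC1 genes whose medians are −0.06 and 0.09.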

How the data were processed

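The authors trimmed single-end reads with Trimmomatic, aligned them with STAR to GRCm38 and deposited HTSeq gene counts, whole numbers without normalization. Versions, counting strand and any collapse of unique molecular identifiers are not given in the sources used here, so counts were treated as read counts. All columns had a sample and 0 had none, and groups came from the labels. In R 4.3.3, edgeR 4.0.16 fitted the 4 groups in 1 quasi-likelihood model (TMM factors, mean count of at least 10, two-sided, Benjamini-Hochberg over 14062 genes). The study's methods name limma, and limma-voom (limma 3.58.1) was an alternative, as were DESeq2 1.42.0, RLE factors, other filters, fits of the groups compared only, replicate block, sex, the 5 chow libraries left out and each library left out. Log2 CPM used a prior count of 2. Exact permutation tests compared group means of log2 CPM or log2 ratios. Exon lengths came from GENCODE M21 (GRCm38). On simulated data with 14062 genes, 200 of them changed, the fit recovered 54% of small and 82% of large changes on chow, and 52% and 87% on MCD, with 2.16% and 3.47% false calls. The small changes already exceeded the genotype difference of every member but Fnip2 on both diets. Fewer genes were changed than were called in the livers, so these rates do not carry over to the members.

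Members and lists were chosen with earlier results of these data known. Named were the 7 members, from each pathway list at most 6 genes called per genotype comparison by size of change besides Rragd and Gpnmb, and for each member up to 3 genes with the highest correlation. Marker genes were named where they move with a member. A result that this rule would name is not reported here. The reads themselves were not analysed here.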

Additional observations from a re-analysis of the deposited data

Results flagged for a closer look

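Of 36 sets of 5 or 6 livers examined for a library far from the rest, 3 held one, where chance gives about 1 in 20. Fnip2 was at 39.2 CPM in Cre MCD 3, with the nearest liver of its group at 17.1 CPM. Tfe3 was at 35.5 CPM in Cre chow 5, the nearest at 32.9 CPM. Mitf was at 5.85 CPM in Cre chow 1, the nearest at 4.08 CPM.

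Among the 22 named genes of the pathway lists, which were named for a call on either diet, 5 had a genotype difference that itself differed between diets (edgeR's quasi-likelihood test of the interaction, which called 3.29% of all tested genes positive and 5.54% negative). Naming genes for a call makes such a difference more likely. The count of 5 was thus in part fixed by that choice and is not read as a result. The log2 interaction was −2.95 for Gpnmb (adjusted p = 0.029), −2.17 for Cd63 (adjusted p = 0.0040), −0.59 for C9orf72 (adjusted p = 0.028), −0.51 for Ywhah (adjusted p = 0.019) and 0.61 for Deptor (adjusted p = 0.032). Gpnmb lay at 0.0791 to 0.677 CPM in Cre chow livers and was tested through its MCD levels, so its value rests on a chow difference near 0 counts.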

How the results depend on the processing

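Of 1288 member values under alternatives, 1187 kept direction and side of the threshold, 23 changed sign while uncalled both times, 62 lost a call, 16 gained one and 0 reversed a call. Without the 5 chow libraries of low mapping share, Flcn on chow was −0.55 and uncalled, 0 members were called on chow and 1 in the diet comparison of liver-Flcn-/- livers, and 494 genes were called on chow, 779 for the interaction and 1334 averaged over diets, against 776 higher and 436 lower, 463 and 779, and 1175 and 865 with all libraries. On chow, Fnip2 passed in DESeq2 (0.79) and in fits of the groups compared (0.81), each with 2 members called. On MCD, Mitf missed the threshold without a filter (−0.47) and in fits of the groups compared (−0.48), and Tfec passed with 10 counts in every library (−0.55). Members called in the diet comparison of Cre livers were 1 without a filter or with the groups compared, and in liver-Flcn-/- livers 1 without a filter.

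Replicate numbers name different mice. Same-numbered livers had a mean correlation of 0.061 between genotypes on chow and 0.129 on MCD, the lowest pair at −0.55 and 0.062. With the replicate number as a block, Flcn on chow was −0.57 (uncalled), Fnip1 0.51 and Fnip2 0.87 (both called, 2 members in all), Mitf on MCD −0.45 (uncalled), and 552 genes were called for the interaction.

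Leaving out each library in turn gave −0.70 to −0.56 for Flcn, 0.30 to 0.55 for Fnip1 and 0.72 to 0.87 for Fnip2 on chow, −0.57 to −0.40 for Mitf and −0.64 to −0.39 for Tfec on MCD. Calls were 670 to 1429 genes on chow and 819 to 1426 for the interaction, the ends past 1.5 times coming without liver-Flcn-/- chow 4 or Cre MCD 1. Members called were 0 to 2 on chow, 0 to 1 for the interaction and 1 to 2 for MCD in Cre livers. The causes were not tested. Mitf and Tfec had the lowest counts of the members, and the part of those counts in the lost and gained calls was not tested.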
